A study of Mus musculus with 6 samples.

Results

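Interferon-stimulated genes are the genes that cells switch on when they receive interferon, the alarm cytokine of viral infection. A list of 51 such mouse genes was followed here, chosen by gene name from the deposited expression table, which holds 55487 genes. All 51 were in the table, and all 51 had enough reads to be among the 15419 genes tested. Mouse bone marrow cells were measured by RNA-seq in 6 libraries. Their label is LT-HSC, for long-term haematopoietic stem cell, the cell type at the root of all blood lineages. Cells with low Mmrn1 gave 3 libraries (Mmrn1-low) and cells with high Mmrn1 the other 3 (Mmrn1-high). Both groups carried the same Mmrn1-GFP genotype, where GFP is green fluorescent protein and Mmrn1 encodes multimerin 1, a protein of platelets and endothelium. No treatment was named for either group, and the sources used here do not give the strain, age, sex or sorting gate.

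Type I interferons signal through the receptor chains Ifnar1 and Ifnar2 and the kinases Jak1 and Tyk2 to a transcription factor complex that contains Stat2 and Irf9 and binds a DNA element called the interferon-stimulated response element (ISRE). Type II interferon signals through Ifngr1 and Ifngr2, and its target genes carry the gamma-activated site (GAS). The induced genes encode sensors of foreign nucleic acid, enzymes that degrade or block viral RNA, membrane proteins that hinder viral entry, and GTPases that attack the vacuoles of intracellular microbes. In bone marrow, interferons are known to push resting stem cells into cycle, and stem cells are known to keep part of this gene programme switched on without infection.

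Of the 51 genes, 44 rose in Mmrn1-high cells and 0 fell at a Benjamini-Hochberg adjusted p under 0.05 in edgeR's quasi-likelihood test. Over all genes tested, 30.7% were called higher and 30.5% lower, 61.2% in either direction. At an unadjusted p under 0.05, 45 members were higher and 0 lower, and DESeq2 called 41 higher and 0 lower, all 41 of them also called by edgeR. A rise of at least 2-fold was seen in 22 members, against 11.3% of all genes tested, and 0 members fell by that much, against 4.90%. The members' median log2 fold change (Mmrn1-high against Mmrn1-low) was 0.70, a 1.62-fold difference, and the quartiles of the list were 0.30 and 1.39. The median over all genes tested was 0.01. In 47 members every Mmrn1-high library lay above every Mmrn1-low library, a pattern shared by 34.1% of all genes tested, and 0 members showed the opposite, against 33.7%. The members were chosen with earlier results of these data known, so these counts describe the list and are not an independent test of its direction.

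Of the 51 members, 45 passed the filter on low counts through the Mmrn1-low libraries alone. Among those 45, 38 were called higher, 16 of them (35.6% of the 45) by at least 2-fold. The median log2 fold change of the 45 was 0.67. The other 6 (Ifit3, Mx2, Gbp4, Gbp6, Gbp8 and Gbp9) passed only because of their level in Mmrn1-high cells, so their calls support nothing about the list. The 7 members not called were Ifit2, Ifih1, Eif2ak2, Ifi47, Isg20, Ifi35 and Tor3a. Rises of at least 4-fold were found in 4 members, Mx2, Ifi44, Ifit1 and Iigp1, whereas 7 of the called members differed by less than 1.25-fold.

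**Figure D1:**
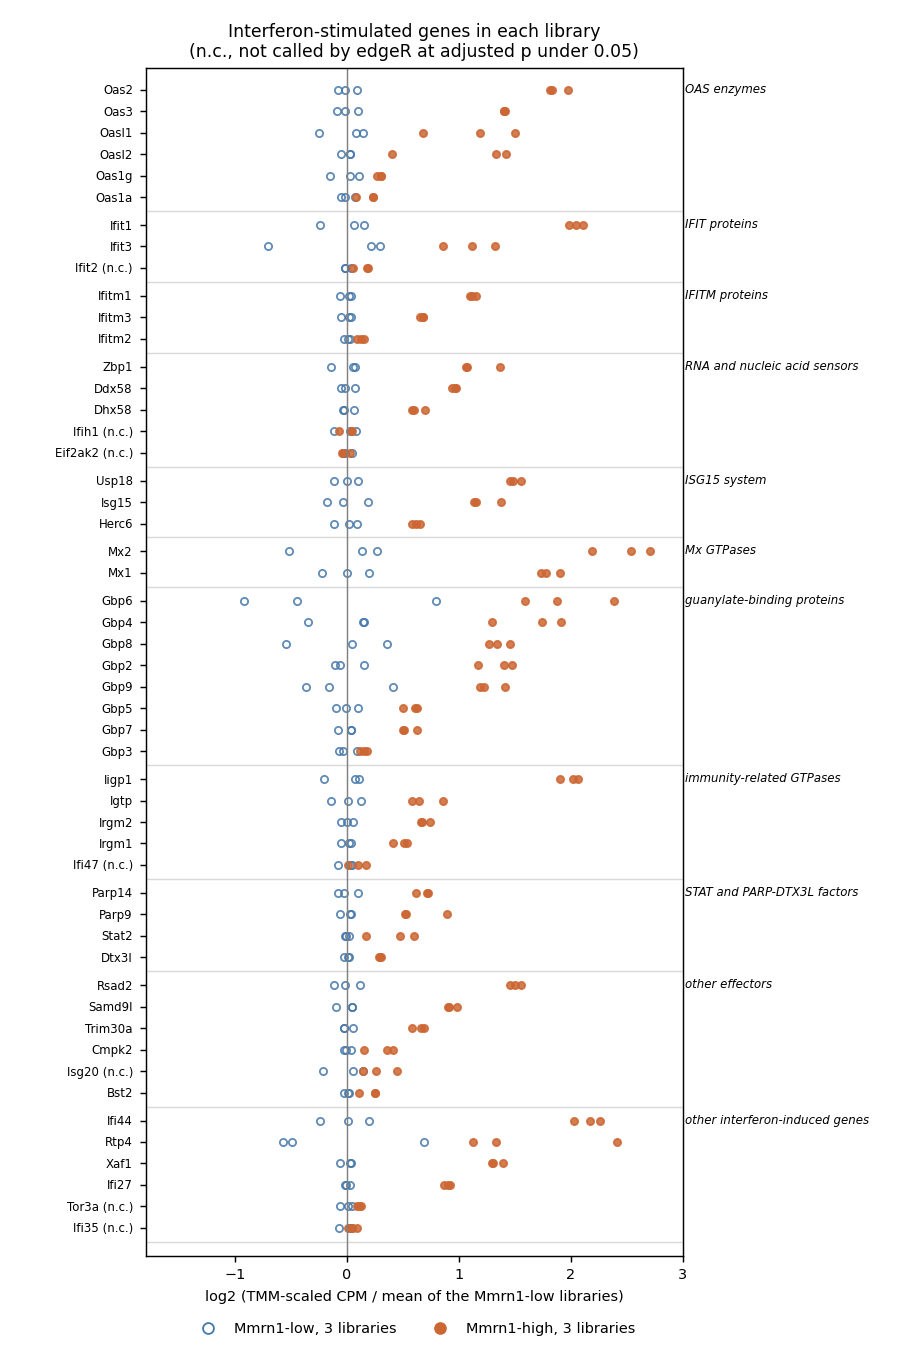
Each row is 1 of the 51 genes and each point 1 library (open, Mmrn1-low; filled, Mmrn1-high); the horizontal axis is the log2 ratio of the library's TMM-scaled CPM to the mean of the 3 Mmrn1-low libraries, with rows grouped by role and n.c. marking genes not called. The filled points lie to the right of all open points in 47 rows and overlap them in Ifih1, Eif2ak2, Ifi47 and Ifi35.

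**Figure D2:**
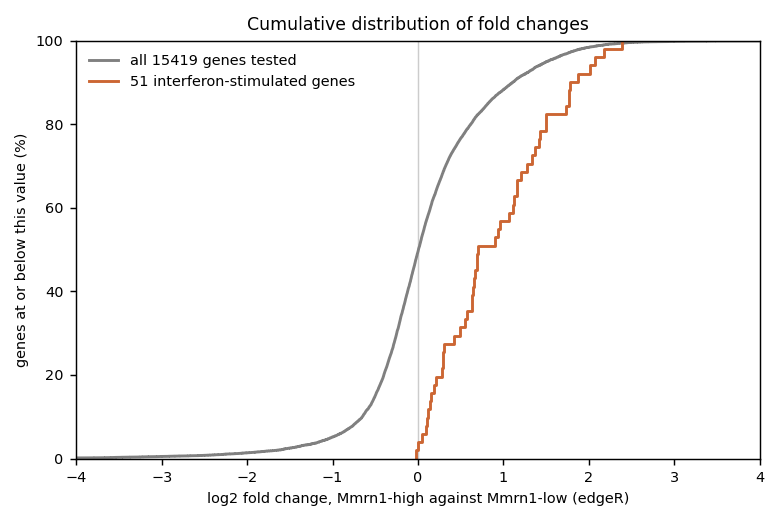
The curves give the percentage of genes (vertical axis) at or below each log2 fold change (horizontal axis) for the 51 members and for all 15419 genes tested. The members' curve reaches 50% near its median of 0.70 and starts at -0.02, while that of all genes crosses 50% near 0.01.

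The libraries held between 11595104 and 30909990 counts assigned to genes, and 3 counts correspond to 0.0925 to 0.245 CPM after scaling. Across genes, Pearson's r between log2 CPM of libraries was 0.986 to 0.989 within groups and 0.946 to 0.952 between groups. Mmrn1 itself, which checks the labels, measured 5.65, 5.61 and 5.82 CPM in the Mmrn1-low libraries and 8.82, 9.80 and 11.5 CPM in the Mmrn1-high libraries (log2 fold change 0.82 ± 0.12, adjusted p = 0.000485). The 3 Mmrn1-high libraries were thus all above the 3 Mmrn1-low ones, as they were in 34.1% of all genes tested. The difference was 1.76-fold, at percentile 84.9 of the fold changes of all genes tested, so the check of the labels is a weak one. CPM values here are counts scaled to a common library total by TMM, a correction for library composition, listed for replicates 1 to 3 in order. Errors on log2 fold changes are standard errors (SE). FPKM, which also divides by gene length, is used where genes are compared with each other. Whether the replicates are separate mice or sorts is not stated in the labels, so the p-values speak only to the spread among these 6 libraries, part or all of which may be technical.

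The cell type label was set beside lists of marker genes. Of 13 stem cell markers, 12 rose in Mmrn1-high cells (92.3%), against 30.7% of all genes tested. The summed level of these markers was 44.7 to 47.4 FPKM in Mmrn1-low and 90.5 to 93.8 FPKM in Mmrn1-high libraries. Kit, the stem cell factor receptor, rose by 0.26 ± 0.03 on the log2 scale and Ly6a, which encodes Sca-1, by 1.92 ± 0.07. Genes of granulocyte progenitors were far more abundant than stem cell markers in both groups. The 7 on that list all fell in Mmrn1-high cells, against 30.5% of all genes tested. Their median log2 fold change was -2.67. Mpo, the myeloperoxidase gene, measured 12609, 12992 and 12125 CPM in the Mmrn1-low libraries and 1940, 1927 and 1968 CPM in the Mmrn1-high libraries, and Elane, the neutrophil elastase gene, 4112, 4253 and 3853 CPM in the Mmrn1-low libraries and 346, 326 and 358 CPM in the Mmrn1-high libraries. These bulk values cannot tell a smaller number of cells of a type from less RNA per cell.

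Promoter sequences show the element through which most of these genes are known to respond. RefSeq's table for build GRCm38.p6 gives windows from 250 bases before to 50 bases after a start site, and 35 of the 51 members had an entry. The ISRE core was searched as GAAANNGAAA on both strands, with overlapping matches allowed. It was present in 22 of the 35 members (62.9%), against 3.99% of all 27025 genes in the table. The sequences below are stretches just upstream of the start site, free of annotated exons and written 5′ to 3′ along the gene's own strand, with capitals marking bases of an ISRE core; a core on the opposite strand reads TTTCNNTTTC. The first set is of genes that rose at least 2-fold and carry cores: Isg15 (chr4:156200819-156200968, minus strand) with 3 overlapping cores, Ifit1 (chr19:34640744-34640870, plus strand) with 2, and Rsad2 (chr12:26456453-26456602, minus strand) with 1.
Isg15: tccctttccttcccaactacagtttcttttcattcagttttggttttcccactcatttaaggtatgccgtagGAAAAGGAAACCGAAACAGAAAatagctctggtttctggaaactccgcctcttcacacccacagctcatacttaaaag
Ifit1: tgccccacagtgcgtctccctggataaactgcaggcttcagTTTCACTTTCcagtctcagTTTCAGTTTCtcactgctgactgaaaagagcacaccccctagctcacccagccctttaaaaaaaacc
Rsad2: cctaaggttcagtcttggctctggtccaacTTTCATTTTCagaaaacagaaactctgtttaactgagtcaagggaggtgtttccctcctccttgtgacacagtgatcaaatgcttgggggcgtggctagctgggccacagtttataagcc
The second set is of genes with 2 overlapping cores that differed by less than 1.25-fold: Oas1a (chr5:120907526-120907675, minus strand), Gbp3 (chr3:142559894-142560025, plus strand) and Bst2 (chr8:71537473-71537622, minus strand).
Oas1a: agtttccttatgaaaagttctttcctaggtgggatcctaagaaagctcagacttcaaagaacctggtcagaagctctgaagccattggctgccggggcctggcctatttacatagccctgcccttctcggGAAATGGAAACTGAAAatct
Gbp3: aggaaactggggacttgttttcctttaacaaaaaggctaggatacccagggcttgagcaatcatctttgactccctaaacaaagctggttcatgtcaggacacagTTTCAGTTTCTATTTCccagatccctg
Bst2: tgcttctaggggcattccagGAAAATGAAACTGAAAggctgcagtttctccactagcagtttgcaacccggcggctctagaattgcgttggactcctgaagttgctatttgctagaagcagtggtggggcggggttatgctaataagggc
The third set is a pair of neighbouring GTPase genes, Igtp (chr11:58199406-58199555, plus strand) and Irgm2 (chr11:58214827-58214976, plus strand), whose stretches share a run of 38 identical bases.
Igtp: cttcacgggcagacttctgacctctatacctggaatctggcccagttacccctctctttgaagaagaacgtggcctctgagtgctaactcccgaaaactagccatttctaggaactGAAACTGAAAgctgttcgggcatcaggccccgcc
Irgm2: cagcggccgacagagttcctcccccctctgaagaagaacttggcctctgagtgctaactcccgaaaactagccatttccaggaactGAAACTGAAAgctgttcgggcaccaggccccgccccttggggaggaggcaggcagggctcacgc
The last is Ifi44 (chr3:151749961-151750060, minus strand), which rose 4.53-fold and has no core in its window.
Ifi44: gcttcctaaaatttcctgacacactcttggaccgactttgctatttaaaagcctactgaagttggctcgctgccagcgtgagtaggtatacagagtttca
A match describes letters in a window and is not evidence that a factor binds there.

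The OAS family senses double-stranded RNA, and its active enzymes make short oligoadenylates that activate RNase L. All 6 members were called higher, 4 of them by at least 2-fold, with a median log2 fold change of 1.13. Oas1a was the most abundant (20.4 FPKM) and the least different of the 6. It measured 35.7, 37.8 and 34.7 CPM in the Mmrn1-low libraries and 38.2, 42.5 and 42.3 CPM in the Mmrn1-high libraries (log2 fold change 0.19 ± 0.06, adjusted p = 0.0332). The groups did not overlap, but the highest Mmrn1-low and the lowest Mmrn1-high library were close. This small difference lost its call in DESeq2 (adjusted p = 0.0714), with the replicate number as a block (adjusted p = 0.0509) and without either of Mmrn1-low replicates 1 and 3 or Mmrn1-high replicates 2 and 3 (adjusted p = 0.0625 to 0.0973). Oas1g, a close relative, measured 13.5, 11.9 and 14.2 CPM in the Mmrn1-low libraries and 15.9, 16.2 and 16.3 CPM in the Mmrn1-high libraries (log2 fold change 0.29 ± 0.09, adjusted p = 0.0206). Its call was lost in DESeq2 (adjusted p = 0.0745) and without Mmrn1-low replicate 2 (0.0566) or Mmrn1-high replicate 3 (0.0521). Reads shared between such close paralogs can be split between them in counting, so the values of Oas1a and Oas1g are uncertain. Oas2 measured 10.7, 9.44 and 9.89 CPM in the Mmrn1-low libraries and 39.5, 35.2 and 35.6 CPM in the Mmrn1-high libraries (log2 fold change 1.88 ± 0.08, adjusted p = 4.52e-07). Even the lowest Mmrn1-high library was more than 3 times the highest Mmrn1-low one. Oas3 rose by 1.41 ± 0.07 (adjusted p = 7.81e-07), and the OAS-like gene Oasl1 by 1.16 ± 0.23 (adjusted p = 0.00325). Oasl2 was uneven among Mmrn1-high libraries, at 18.7, 19.7 and 19.8 CPM in the Mmrn1-low libraries and 48.8, 25.6 and 51.9 CPM in the Mmrn1-high libraries (log2 fold change 1.11 ± 0.29, adjusted p = 0.0239). Mmrn1-high replicate 2 lay well below the other two, and the call was lost without any 1 library except that one (adjusted p = 0.0631 to 0.0810). The call was also lost with all libraries when no filter on low counts was used (adjusted p = 0.0606).

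The IFIT proteins bind viral RNA and block its translation. Of 3 members, 2 rose by at least 2-fold (Ifit1 and Ifit3, the second of which passed the filter only through Mmrn1-high cells) and 1 was not called. Ifit1 measured 2.16, 2.29 and 1.74 CPM in the Mmrn1-low libraries and 8.17, 8.51 and 8.91 CPM in the Mmrn1-high libraries (log2 fold change 2.08 ± 0.14, adjusted p = 5.09e-06). Its Mmrn1-high values were all at least 3 times the highest Mmrn1-low value. Ifit2 was the most abundant of the 3 (7.21 FPKM) and similar in both groups. It measured 29.6, 30.7 and 29.6 CPM in the Mmrn1-low libraries and 31.1, 34.2 and 34.0 CPM in the Mmrn1-high libraries (log2 fold change 0.15 ± 0.06, adjusted p = 0.0677). The Mmrn1-high libraries lay slightly above the others, and the difference did not pass the threshold. It did pass with voom (adjusted p = 0.0483), at a filter of 5 CPM (0.0181), without Mmrn1-high replicate 1 (0.0277), and with library size alone or on FPKM (0.00292 to 0.00607). Ifit3, the rarest at 0.654 FPKM, had a log2 fold change of 1.07 ± 0.28 (adjusted p = 0.0103).

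IFITM proteins sit in membranes and hinder the fusion of viruses with the cell, and stem cells are known to express them without interferon. They were by far the most abundant members, between 275 and 433 FPKM, while the list's median was 3.80 FPKM. All 3 were called higher, by unequal amounts. Ifitm1 measured 275, 295 and 290 CPM in the Mmrn1-low libraries and 636, 614 and 622 CPM in the Mmrn1-high libraries (log2 fold change 1.12 ± 0.03, adjusted p = 7.47e-08). The groups were far apart, each with a narrow spread. Ifitm3, best known for blocking influenza virus, measured 139, 148 and 146 CPM in the Mmrn1-low libraries and 232, 231 and 227 CPM in the Mmrn1-high libraries (log2 fold change 0.67 ± 0.03, adjusted p = 1.13e-06). Ifitm2 measured 276, 273 and 266 CPM in the Mmrn1-low libraries and 296, 290 and 302 CPM in the Mmrn1-high libraries (log2 fold change 0.12 ± 0.03, adjusted p = 0.00672). That is a difference of 1.09-fold with groups that did not overlap. Another annotated gene, Gm45717, covers 40.9% of the exon bases of Ifitm2 on the same strand, so its value is uncertain.

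Sensors of foreign RNA and DNA were split. Of 5 members, 3 were called higher and 2 were not called. The RIG-I-like receptors recognise viral RNA in the cytoplasm, and 2 of the 3 rose. Ddx58, which encodes RIG-I, rose from 28.8 to 31.5 CPM in Mmrn1-low to 57.4 to 58.7 CPM in Mmrn1-high libraries, a log2 fold change of 0.96 ± 0.05 (adjusted p = 1.92e-06). Dhx58, which encodes the regulator LGP2, measured 21.6, 20.2 and 20.4 CPM in the Mmrn1-low libraries and 31.5, 31.0 and 33.8 CPM in the Mmrn1-high libraries (log2 fold change 0.63 ± 0.06, adjusted p = 6.45e-05). Ifih1, which encodes MDA5, measured 36.1, 31.4 and 34.6 CPM in the Mmrn1-low libraries and 32.4, 35.2 and 34.9 CPM in the Mmrn1-high libraries (log2 fold change 0.01 ± 0.07, adjusted p = 0.955). Its groups overlapped completely, with the highest and the lowest values both in Mmrn1-low libraries, and the sign turned negative without Mmrn1-low replicate 2 or Mmrn1-high replicate 3. Zbp1, a sensor of left-handed nucleic acid that can trigger necroptosis, measured 3.36, 3.91 and 3.87 CPM in the Mmrn1-low libraries and 9.56, 7.80 and 7.77 CPM in the Mmrn1-high libraries (log2 fold change 1.16 ± 0.13, adjusted p = 0.000117). Eif2ak2 encodes PKR, the kinase that stops translation on sensing double-stranded RNA. It measured 81.9, 82.8 and 86.7 CPM in the Mmrn1-low libraries and 81.1, 85.4 and 81.9 CPM in the Mmrn1-high libraries (log2 fold change -0.02 ± 0.04, adjusted p = 0.738). The groups overlapped, and this was the only member of the 51 with a negative fold change, which became positive and was called higher when library size alone was used for scaling (adjusted p = 0.0258) and on FPKM (0.0308 to 0.0408).

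The ubiquitin-like modifier system of Isg15 rose as a whole, with 3 of 3 members called. Isg15, whose promoter stretch above carries 3 overlapping cores, measured 3.49, 3.84 and 4.49 CPM in the Mmrn1-low libraries and 8.74, 8.66 and 10.3 CPM in the Mmrn1-high libraries (log2 fold change 1.21 ± 0.13, adjusted p = 0.000106). Every Mmrn1-high library was well above every Mmrn1-low one. Usp18, which removes Isg15 from proteins and also dampens the type I receptor, measured 2.79, 3.25 and 3.03 CPM in the Mmrn1-low libraries and 8.91, 8.45 and 8.31 CPM in the Mmrn1-high libraries (log2 fold change 1.50 ± 0.11, adjusted p = 9.94e-06). Herc6, the main enzyme that attaches Isg15 in mice, measured 17.1, 18.0 and 15.5 CPM in the Mmrn1-low libraries and 25.9, 26.6 and 25.3 CPM in the Mmrn1-high libraries (log2 fold change 0.63 ± 0.07, adjusted p = 0.000161). None of these groups overlapped. Herc6 shares 13.7% of its exon bases with another annotated gene.

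The Mx GTPases trap viral nucleoproteins. Both were rare, at 0.496 FPKM for Mx1 and 0.416 FPKM for Mx2. Mx1 measured 1.46, 1.25 and 1.67 CPM in the Mmrn1-low libraries and 5.47, 4.87 and 5.02 CPM in the Mmrn1-high libraries (log2 fold change 1.77 ± 0.16, adjusted p = 2.64e-05). Mx2 measured 0.698, 0.443 and 0.766 CPM in the Mmrn1-low libraries and 4.17, 2.90 and 3.68 CPM in the Mmrn1-high libraries (log2 fold change 2.39 ± 0.25, adjusted p = 7.24e-05). This was the largest fold change of the 51, 5.25-fold, from Mmrn1-low libraries below 1 CPM, and Mx2 is among the genes that passed the filter only through Mmrn1-high cells. Mx2 is also annotated as a polymorphic pseudogene, so a working protein cannot be assumed.

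Guanylate-binding proteins (GBPs) are GTPases that coat and break the vacuoles of bacteria and parasites and respond strongly to type II interferon. All 8 were called higher, 5 by at least 2-fold, with a median log2 fold change of 1.32. Of these, Gbp4, Gbp6, Gbp8 and Gbp9 passed the filter only through Mmrn1-high cells, a selection that favours a rise, so their calls support nothing about the family. The other 4 were called as well, 1 of them by at least 2-fold, with a median of 0.56. The most abundant were the 2 with smaller differences. Gbp7 (12.9 FPKM) measured 70.2, 64.8 and 70.1 CPM in the Mmrn1-low libraries and 97.5, 106 and 97.0 CPM in the Mmrn1-high libraries (log2 fold change 0.55 ± 0.05, adjusted p = 4.04e-05). Gbp3 (12.2 FPKM), whose promoter stretch above has 2 overlapping cores, measured 67.0, 74.9 and 68.7 CPM in the Mmrn1-low libraries and 75.9, 79.6 and 77.8 CPM in the Mmrn1-high libraries (log2 fold change 0.15 ± 0.05, adjusted p = 0.0351). Its lowest Mmrn1-high library was only just above its highest Mmrn1-low one. The call was lost in DESeq2 (adjusted p = 0.0722) and without Mmrn1-low replicate 1 or 3 or Mmrn1-high replicate 2 or 3 (0.0701 to 0.0782). Gbp2, at a level of 7.53 FPKM, rose by 1.36 ± 0.11 (adjusted p = 1.28e-05), and Gbp5, which also promotes inflammasome activity, by 0.58 ± 0.08 (adjusted p = 0.000332). Gbp6 measured 0.317, 0.443 and 1.05 CPM in the Mmrn1-low libraries and 2.21, 1.82 and 3.15 CPM in the Mmrn1-high libraries (log2 fold change 1.78 ± 0.41, adjusted p = 0.00642). Mmrn1-low replicate 3 was well above the other two, yet below every Mmrn1-high library. Gbp4 (0.0941 FPKM), Gbp8 (0.283 FPKM) and Gbp9 (0.154 FPKM) were rare and had log2 fold changes between 1.28 and 1.77. The members lie in 2 clusters. Gbp5, Gbp7, Gbp3 and Gbp2 lie on chromosome 3 (chr3:142493978-142638008) and ranged from 0.15 to 1.36, and Gbp8, Gbp9, Gbp4 and Gbp6 on chromosome 5 (chr5:105014150-105293698) and ranged from 1.28 to 1.78. The chromosome 5 genes overlap or resemble each other, Gbp6 shares 29.0% of its exon bases with Gm43302, and their separate values are uncertain.

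The immunity-related GTPases act on the same vacuoles, and 4 of 5 were called higher with a median log2 fold change of 0.69. Igtp measured 19.0, 21.2 and 23.0 CPM in the Mmrn1-low libraries and 31.5, 32.9 and 38.3 CPM in the Mmrn1-high libraries (log2 fold change 0.70 ± 0.10, adjusted p = 0.000423). Irgm2, which starts next to it on chromosome 11 and shares exon bases with it, rose by 0.69 ± 0.06 (adjusted p = 3.54e-05). The regulator Irgm1 rose by 0.49 ± 0.07 (adjusted p = 0.000366). Iigp1, an effector that is loaded onto the vacuole, measured 2.67, 2.73 and 2.19 CPM in the Mmrn1-low libraries and 10.6, 10.3 and 9.45 CPM in the Mmrn1-high libraries (log2 fold change 2.02 ± 0.13, adjusted p = 3.93e-06). Every Mmrn1-high library was more than 3 times any Mmrn1-low library. Ifi47, the most abundant of the 5 at 8.94 FPKM, measured 58.8, 58.1 and 53.9 CPM in the Mmrn1-low libraries and 61.0, 64.0 and 57.5 CPM in the Mmrn1-high libraries (log2 fold change 0.10 ± 0.06, adjusted p = 0.182). Its groups overlapped, with Mmrn1-high replicate 3 below Mmrn1-low replicates 1 and 2.

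Members that act in interferon signalling itself rose modestly. All 4 were called, none by 2-fold, with a median of 0.54. Stat2, a subunit of the ISRE-binding complex, had a log2 fold change of 0.43 ± 0.10 (adjusted p = 0.00767), from 26.1 to 26.8 CPM in Mmrn1-low and 29.7 to 40.1 CPM in Mmrn1-high libraries. Parp9 and Dtx3l form a complex of an ADP-ribosyltransferase-like protein and a ubiquitin ligase. Parp9 measured 41.9, 39.5 and 42.2 CPM in the Mmrn1-low libraries and 59.2, 59.3 and 76.7 CPM in the Mmrn1-high libraries (log2 fold change 0.66 ± 0.11, adjusted p = 0.00127). Dtx3l measured 93.7, 96.5 and 96.2 CPM in the Mmrn1-low libraries and 116, 117 and 118 CPM in the Mmrn1-high libraries (log2 fold change 0.30 ± 0.03, adjusted p = 9.32e-05). Parp14, a related ADP-ribosyltransferase, measured 43.7, 38.5 and 40.1 CPM in the Mmrn1-low libraries and 67.4, 66.8 and 62.4 CPM in the Mmrn1-high libraries (log2 fold change 0.69 ± 0.06, adjusted p = 3.00e-05). The groups of these 3 did not overlap. Parp9 and Dtx3l are read from opposite strands and share exon bases (9.40% of those of Parp9). The sources used here do not state the strand setting of the counting, so reads from that stretch cannot be assigned.

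Among other antiviral effectors, 5 of 6 were called higher. Rsad2, which encodes viperin, an enzyme that makes a chain-terminating nucleotide, measured 4.95, 5.31 and 5.82 CPM in the Mmrn1-low libraries and 15.2, 15.8 and 14.7 CPM in the Mmrn1-high libraries (log2 fold change 1.50 ± 0.10, adjusted p = 4.40e-06). Cmpk2, the nucleotide kinase gene beside it, rose by only 0.31 ± 0.08 (adjusted p = 0.00934). Bst2 encodes tetherin, which holds budding virions at the cell surface, and was the most abundant of the 6 (61.9 FPKM). It measured 65.6, 63.8 and 65.4 CPM in the Mmrn1-low libraries and 69.9, 77.1 and 77.4 CPM in the Mmrn1-high libraries (log2 fold change 0.21 ± 0.05, adjusted p = 0.00795). The difference was 1.15-fold with no overlap. Trim30a, a ubiquitin ligase that restrains NF-kappaB signalling, measured 58.6, 58.7 and 62.2 CPM in the Mmrn1-low libraries and 94.9, 96.6 and 89.5 CPM in the Mmrn1-high libraries (log2 fold change 0.65 ± 0.05, adjusted p = 8.97e-06). Samd9l, a restriction factor whose loss is known to disturb blood formation, rose by 0.93 ± 0.06 (adjusted p = 4.31e-06). Isg20, an exonuclease that degrades viral RNA, measured 9.45, 7.38 and 8.88 CPM in the Mmrn1-low libraries and 10.3, 9.46 and 11.7 CPM in the Mmrn1-high libraries (log2 fold change 0.28 ± 0.13, adjusted p = 0.0900). The lowest Mmrn1-high library and the highest Mmrn1-low library were about equal, and the difference was not called.

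The last 6 members are induced genes of mixed or less clear function, and 4 were called higher. Ifi27, a small mitochondrial protein gene, measured 37.5, 36.4 and 36.6 CPM in the Mmrn1-low libraries and 69.8, 67.1 and 69.1 CPM in the Mmrn1-high libraries (log2 fold change 0.90 ± 0.04, adjusted p = 1.06e-06). Ifi44 measured 4.12, 3.62 and 3.03 CPM in the Mmrn1-low libraries and 16.2, 17.2 and 14.7 CPM in the Mmrn1-high libraries (log2 fold change 2.18 ± 0.13, adjusted p = 3.37e-06). Its lowest Mmrn1-high library was more than 3 times its highest Mmrn1-low one. Xaf1, an antagonist of the apoptosis inhibitor XIAP, rose by 1.33 ± 0.08 (adjusted p = 3.66e-06). Rtp4, a chaperone of G-protein-coupled receptors, had the largest standard error of the 51, at 7.81, 3.25 and 3.45 CPM in the Mmrn1-low libraries and 25.7, 12.1 and 10.6 CPM in the Mmrn1-high libraries (log2 fold change 1.74 ± 0.54, adjusted p = 0.0429). Replicate 1 was the high library in both groups, and the call was lost without Mmrn1-low replicate 2 or 3 or any Mmrn1-high library (adjusted p = 0.0545 to 0.140). The call was also lost with all libraries when no filter on low counts was used (adjusted p = 0.0928). Ifi35 measured 33.8, 33.5 and 31.2 CPM in the Mmrn1-low libraries and 33.0, 33.9 and 34.9 CPM in the Mmrn1-high libraries (log2 fold change 0.05 ± 0.06, adjusted p = 0.505). Tor3a, an interferon-induced torsin, measured 54.5, 50.5 and 53.2 CPM in the Mmrn1-low libraries and 57.4, 56.0 and 56.9 CPM in the Mmrn1-high libraries (log2 fold change 0.11 ± 0.05, adjusted p = 0.0843). Ifi35 overlapped between groups, whereas Tor3a was slightly higher in all 3 Mmrn1-high libraries without passing the threshold. Tor3a did pass at a filter of 5 CPM (adjusted p = 0.0205).

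The size of the difference went with the level of the gene. Of the 25 members below the list's median level of 3.80 FPKM, 19 (76.0%) rose by at least 2-fold, with a median log2 fold change of 1.41. Of the 26 at or above it, 3 did (11.5%), namely Ifitm1, Isg15 and Gbp2, with a median of 0.49. All genes tested showed the same tilt at the same boundary, with 20.8% of those below and 3.51% of those above it rising 2-fold. Spearman's rho between level and log2 fold change was -0.66 over the 51 members and -0.37 over the 15419 genes. The lower side holds all 6 members that passed the filter only through Mmrn1-high cells, a selection that favours a rise among genes of low level. Without them, 13 of 19 (68.4%) rose by at least 2-fold with a median of 1.33, and rho over the remaining 45 members was -0.57. These are descriptions across genes, which share the same 6 libraries and are not independent. The 13 members of both GTPase families had a median of 0.70, and the other 38 members 0.79. Both medians include genes that passed the filter only through Mmrn1-high cells. These were Gbp4, Gbp6, Gbp8 and Gbp9 among the 13, and Ifit3 and Mx2 among the 38. The 2 medians therefore do not show whether the families differ.

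**Figure D3:**
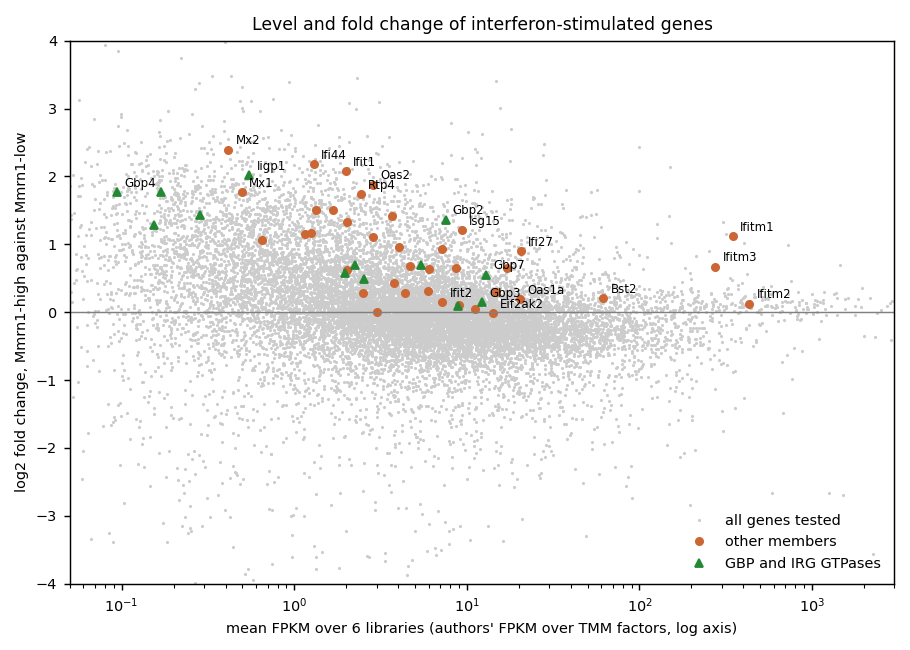
Each point is a gene, placed by its mean FPKM over the 6 libraries (horizontal log axis) and its log2 fold change (vertical axis); grey points are all genes tested, triangles are GBP and immunity-related GTPases and circles the other members. The large rises, such as Mx2, Ifi44, Ifit1 and Iigp1, lie at low levels and Ifitm2 and Bst2 lie near 0 at high levels; 69 genes fall beyond the axes and 0 of them are members.

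Neighbouring members were compared because induced gene families often lie together. Joining members no more than 500 kb apart gave 11 clusters holding 31 of the 51 members. The range of log2 fold changes within a cluster ran from 0.0072 to 1.93, against 2.41 over the list. On chromosome 19 (chr19:34550694-34650009) Ifit2, Ifit3 and Ifit1 ran from 0.15 to 2.08, and on chromosome 5 (chr5:120730333-120907521) Oas1a, Oas1g, Oas3 and Oas2 ran from 0.19 to 1.88. Rsad2 and Cmpk2, which are transcribed away from each other on chromosome 12 (chr12:26442746-26479837), had 1.50 and 0.31. By contrast, Oasl1 and Oasl2 had 1.16 and 1.11, and Igtp and Irgm2 0.70 and 0.69. The promoter stretches of Igtp and Irgm2 were 62.8% identical and those of Oas1a and Oas1g 83.2%, while those of Gbp3 and Gbp7 (50.6%) and of Ifit1 and Ifit3 (50.3%) were less alike.

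Members with and without an ISRE core had similar medians, whereas those with a GAS match had the lower median. With an ISRE core in the window, 20 of 22 members were called higher, 6 by at least 2-fold, with a median log2 fold change of 0.61. Without one, 9 of 13 were called higher, 5 by at least 2-fold, with a median of 0.63. The longer form GAAANNGAAACT was present in 13 of the 35 members (37.1%), against 0.303% of all genes. The GAS motif TTCNNNGAA, searched on both strands, was present in 11 of the 35 (31.4%), against 9.55% of all genes. Members with it had a median of 0.28, with 7 of 11 called and 0 of 11 rising by 2-fold, and those without it a median of 0.95, with 22 of 24 called and 11 rising by 2-fold. The members with a GAS match were the more abundant ones, with a median level of 11.1 FPKM against 3.91 FPKM, and level went with the size of the difference as described above. The 16 members with no entry in the promoter table had a median of 1.46. They include Mx2, Gbp4, Gbp6, Gbp8 and Gbp9, which passed the filter only through Mmrn1-high cells, a selection that favours a rise. Their median is therefore not comparable with those above. Ifit3, selected in the same way, is counted among members with an ISRE core and among those without a GAS match.

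**Figure D4:**
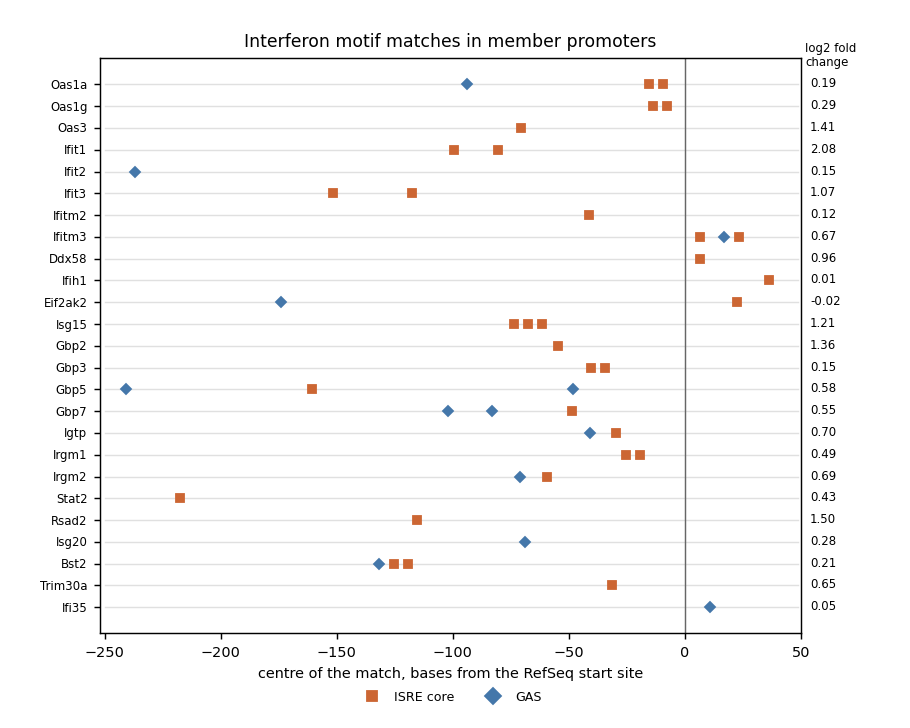
Each row is a member with at least 1 match; squares mark ISRE cores and diamonds GAS motifs by the distance of their centre from the RefSeq start site in bases (horizontal axis), and the log2 fold change is printed at the right. Cores lie within 150 bases before the start in genes with large changes (Ifit1, Rsad2, Isg15) and with small ones (Oas1a, Gbp3, Bst2).

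The other genes of the interferon pathway were then examined, from lists written with earlier results of these data known. Interferon genes themselves were close to silent. Of 19 ligand genes none reached the filter, and 15 had no count in any library. The highest total was for Ifng, the type II interferon, with 4, 0 and 3 counts in Mmrn1-low and 1, 13 and 0 counts in Mmrn1-high libraries. Ifna1, Ifna2 and Ifnz, type I interferon genes, had at most 3 counts in a library.

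Of 9 genes for receptors and their kinases, 5 were higher (55.6%) and 2 lower (22.2%), against 30.7% and 30.5% of all genes tested. Ifngr1, the ligand-binding chain for type II interferon, measured 227, 180 and 220 CPM in the Mmrn1-low libraries and 74.8, 63.9 and 81.6 CPM in the Mmrn1-high libraries (log2 fold change -1.51 ± 0.13, adjusted p = 0.000229). It was lower in all 3 Mmrn1-high libraries, by 2.86-fold. Tyk2, a kinase of the type I receptor, was also lower (log2 fold change -0.28 ± 0.04, adjusted p = 0.000498), and its call was lost on log2(FPKM + 1) values without a filter (adjusted p = 0.0519). Ifnar2 rose by 0.43 ± 0.04 (adjusted p = 4.82e-05), Jak1 by 0.29 ± 0.03 (adjusted p = 8.15e-05) and Jak2 by 0.29 ± 0.04 (adjusted p = 0.000296).

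Transcription factors of the pathway were higher in 8 of 12 cases (66.7%) and lower in 0, against 30.7% and 30.5% of all genes tested. Their median log2 fold change was 0.70. Without Mmrn1-low replicate 3, 5 were called. Irf7, the master regulator of interferon genes, measured 5.33, 7.30 and 6.97 CPM in the Mmrn1-low libraries and 18.2, 15.9 and 18.9 CPM in the Mmrn1-high libraries (log2 fold change 1.43 ± 0.13, adjusted p = 3.61e-05). Irf5, a relative, rose by 1.06 ± 0.19 (adjusted p = 0.00376), and Irf2, a repressor of interferon signalling in stem cells, by 0.72 ± 0.08 (adjusted p = 8.22e-05). Nlrc5, which activates class I antigen presentation genes, rose by 0.69 ± 0.04 (adjusted p = 1.98e-06). Of the ISRE-binding complex, Stat2 was called, as was Irf9 (log2 fold change 0.74 ± 0.18, adjusted p = 0.0148).

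Of 12 inhibitors of interferon signalling, 5 rose (41.7%) and 4 fell (33.3%), and the median was 0.03. These shares lie near those of all genes tested (30.7% and 30.5%), so the count says nothing particular about the list. Socs3, a feedback inhibitor of cytokine receptors, measured 31.1, 29.8 and 30.6 CPM in the Mmrn1-low libraries and 153, 151 and 152 CPM in the Mmrn1-high libraries (log2 fold change 2.31 ± 0.04, adjusted p = 4.36e-09). The groups differed by 4.97-fold with a narrow spread in each. Trim24 rose by 0.60 ± 0.07 (adjusted p = 0.000149) and Socs1, the main feedback inhibitor of interferon receptors, by 0.71 ± 0.11 (adjusted p = 0.000692). The phosphatase genes Ptpn2 (-0.35 ± 0.06), Ptpn11 (-0.27 ± 0.03) and Ptpn1 (-0.09 ± 0.03) were lower, as was the corepressor gene Irf2bp2 (-0.41 ± 0.03). Ptpn1 lay close to the threshold (adjusted p = 0.0437) and turned slightly positive when library size alone was used for scaling.

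Of 14 genes linked to the sensing of nucleic acid upstream of interferon production, 8 rose (57.1%) and 4 fell (28.6%). Over all genes tested 30.7% rose and 30.5% fell, so the second share is near that of all genes. The list is mixed, with Samhd1, Trex1 and Adar beside sensors and adaptors, so these counts give no direction for interferon production. Samhd1, which depletes nucleotides for viral replication, rose by 0.69 ± 0.03 (adjusted p = 7.67e-07), and Sting1, the adaptor for cytoplasmic DNA, by 0.62 ± 0.06 (adjusted p = 4.80e-05). The lower genes were Traf3 (log2 fold change -0.92 ± 0.11, adjusted p = 0.000152), Ikbke (log2 fold change -0.88 ± 0.06, adjusted p = 3.77e-06), Ticam1 (log2 fold change -0.49 ± 0.09, adjusted p = 0.00189) and Myd88 (log2 fold change -0.37 ± 0.05, adjusted p = 0.000488), which carry the signal from sensors and Toll-like receptors to the interferon regulatory factors.

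A further list of 63 interferon-stimulated genes outside the 51 gave 52 tested genes. Of these, 41 were higher (78.8%) and 4 lower (7.69%), against 30.7% and 30.5% of all genes tested. The median was 0.82 on the log2 scale. This list overlaps that of transcription factors, for example in Irf7 and Irf9. Ifi203, a DNA-binding protein gene, measured 60.5, 62.9 and 63.4 CPM in the Mmrn1-low libraries and 174, 181 and 172 CPM in the Mmrn1-high libraries (log2 fold change 1.50 ± 0.04, adjusted p = 3.66e-08). Tgtp1, an immunity-related GTPase gene, rose by 1.60 ± 0.06 (adjusted p = 3.16e-07), Tnfsf10, which encodes the death ligand TRAIL, by 1.45 ± 0.05 (adjusted p = 1.33e-07), and Uba7, the enzyme that activates Isg15, by 1.01 ± 0.04 (adjusted p = 4.43e-07). The chemokine genes Cxcl9 and Cxcl10, known targets of type II interferon, went the other way. Cxcl10 measured 8.50, 9.15 and 8.95 CPM in the Mmrn1-low libraries and 4.33, 2.62 and 3.75 CPM in the Mmrn1-high libraries (log2 fold change -1.36 ± 0.18, adjusted p = 0.000262), and Cxcl9, below 1 CPM in every library, had -1.40 ± 0.30 (adjusted p = 0.00419). DESeq2 did not call Cxcl9 (adjusted p = 0.0564). At this level the Mmrn1-high libraries alone would not have passed the filter, a selection that favours a fall, so the call of Cxcl9 carries no weight. Pnpt1 (-0.25 ± 0.04) and Mlkl (-0.22 ± 0.06) were also lower, both by less than 1.25-fold, and both lost their calls when library size alone was used for scaling (adjusted p = 0.0560 and 0.313).

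**Figure D5:**
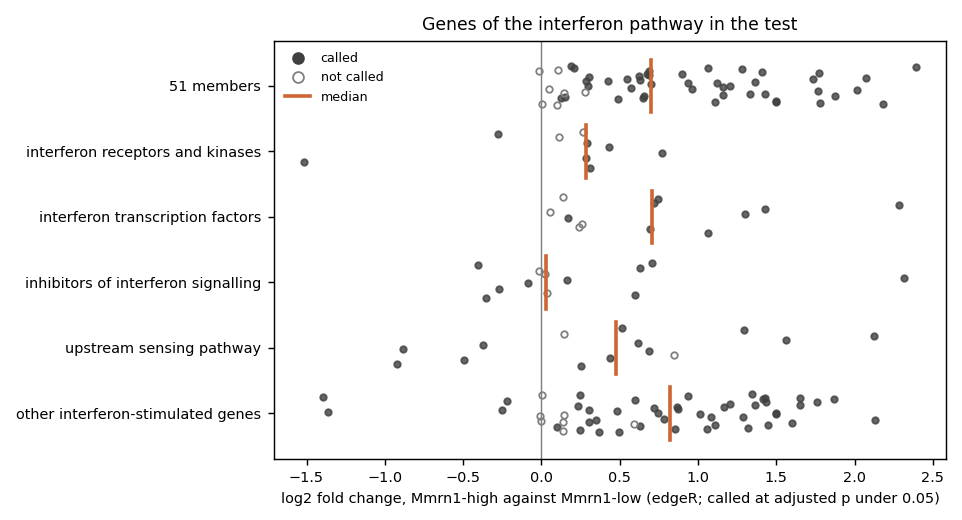
Each point is a tested gene of a list (rows), placed by its log2 fold change in edgeR (horizontal axis), filled if called and open if not; the bar is the list's median. The medians of the 51 members (0.70) and of the other interferon-stimulated genes (0.82) lie right of 0, whereas that of the inhibitors is 0.03 and Ifngr1 at -1.51 stands apart among the receptors.

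Markers of other marrow cells moved with the groups, and their part in the differences above was not tested. Since 61.2% of all genes tested were called, 30.7% higher and 30.5% lower, the summed level is given beside most counts. Plasmacytoid dendritic cells are known for high interferon pathway activity, and Bst2 is one of their surface markers. Of their 11 listed markers, 9 were tested, 7 were higher and 1 was lower in Mmrn1-high cells, with summed levels of 14.6 to 15.4 FPKM in Mmrn1-low and 31.4 to 35.1 FPKM in Mmrn1-high libraries. Klk1, on that list, was at 0 in 5 of the 6 libraries. Ly6d measured 2.03, 2.29 and 2.09 CPM in the Mmrn1-low libraries and 9.23, 8.26 and 7.91 CPM in the Mmrn1-high libraries and Cox6a2 1.40, 1.99 and 1.67 CPM in the Mmrn1-low libraries and 7.19, 6.26 and 6.97 CPM in the Mmrn1-high libraries. Of 13 T and natural killer cell markers, 8 were tested, 6 were higher and 1 lower, and the summed level ran from 284 to 287 FPKM in Mmrn1-low down to 84.0 to 84.8 FPKM in Mmrn1-high libraries, where Nkg7, the most abundant, fell by 2.14 on the log2 scale. Lck, a T cell kinase gene, rose by 1.88 ± 0.07. B cell markers were higher in 7 of 10 tested genes and lower in 0, while their summed level, carried by Ighm and Cd79b, which were not called, was 156 to 161 FPKM in Mmrn1-low and 157 to 163 FPKM in Mmrn1-high libraries. Plasma cell markers were higher in 1 and lower in 3 of 7 tested genes, including Xbp1 (-1.83 ± 0.29), with Jchain not called. Monocyte and macrophage markers were lower in 10 and higher in 3 of 15, with summed levels of 218 to 236 FPKM in Mmrn1-low and 102 to 105 FPKM in Mmrn1-high libraries, led by F13a1 (-0.81 ± 0.03) and Ly6c2 (-1.95 ± 0.08). Genes of maturing neutrophils were higher in 12 of 12, from summed levels of 2610 to 2830 FPKM to 4240 to 4554 FPKM, with S100a9 (0.70 ± 0.14) and S100a8 (0.15 ± 0.05) the most abundant. No listed marker of these cell types was at 0 in all 6 libraries.

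Within groups most members varied little, though the figures that follow have no value over all genes beside them. The median ratio of SD to mean over the 51 members was 6.15% among Mmrn1-low and 4.84% among Mmrn1-high libraries. The highest library exceeded the lowest by more than 1.5-fold in 6 members among Mmrn1-low and in 5 among Mmrn1-high libraries. Rtp4 and Gbp6 did so in both groups, and the others were Ifit3, Mx2, Gbp8 and Gbp9 in Mmrn1-low and Oasl1, Oasl2 and Gbp4 in Mmrn1-high cells. Of the 51 members, 31 share no exon base with another annotated gene. Among these 31, 27 were called higher and the median log2 fold change was 0.93.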

How the data were processed

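The deposited table gave raw read counts and FPKM for each gene in 6 libraries. Libraries were stranded, paired-end and poly-A selected, per the labels' protocols. Build GRCm38 and the tools HISAT2, StringTie, edgeR and CASAVA 1.8 come from the submitters' processing notes. How the counting treated strand was not given in the sources used here. The authors' counts were not normalized, per the file headers. The authors' FPKM followed count over library total with the same factor per gene in all 6 libraries. FPKM levels given here were therefore divided by the TMM factors. The alternative fits on FPKM used the authors' values undivided, so they scale by library total, as library size alone does. Counts were tested with edgeR 4.0.16 (R 4.3.3; quasi-likelihood F test, robust, TMM, filterByExpr, group as the only term). Calls were made at an adjusted p (Benjamini-Hochberg) under 0.05. The filter asked for at least 0.646 CPM, or 10 counts in the median library, in 3 libraries. The procedure was tested on simulated data. Exon sharing used GENCODE M21, and 55227 of 55487 identifiers matched.

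The members and the other lists were chosen with earlier results of these data known. Members were given in full if they were among the 2 most abundant or had the largest change of their role, or were not called. Other pathway lists gave up to 4 genes with the smallest p and any called lower, and marker lists the 2 most abundant. The alternatives tried were library size alone, relative log expression factors, other filters, DESeq2 1.42.0, limma 3.58.1 voom and limma-trend on log2(FPKM + 1), a pseudocount of 0.1, the replicate number as a block, each library left out, calls at 0.01 or with a 2-fold minimum, members sharing no exon base, and a longer motif. Tables were made with Python 3.11.15 and pandas 2.3.3. Counts over the members that passed the filter in Mmrn1-low libraries alone were added after seeing the data. 1 gene of the pathway lists is not reported here.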

Additional observations from a re-analysis of the deposited data

How the results depend on the processing

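Of the 51 members, 39 had the same call and direction under each of up to 16 alternatives, and 12 changed under at least 1. The count called higher was 39 to 43 without any 1 library, 41 with DESeq2, 45 with voom, 42 without a filter, 38 at an adjusted p under 0.01 and 40 of the 45 members left at 5 CPM in 3 libraries; 0 members were called lower in any of these. With library size alone it was 50, the median over all genes moved from 0.01 to 0.15 and the share of calls that were higher from 50.2% to 66.0%; the members' median became 0.85, which is 0.69 above that of all genes, as in the TMM fit. With a 2-fold minimum, 2492 genes and 22 members were called. Without that minimum, 27 of the 31 members sharing no exon base were called. The members' median was 0.79 with a pseudocount of 0.1 on FPKM, 0.64 with a pseudocount of 1 and no filter, 0.93 over members sharing no exon base and 0.70 to 0.78 without any 1 library. The longer motif was in 37.1% of members with a window. The sign changed in Eif2ak2, which had 0.131 with library size alone, 0.0321 at 5 CPM, 0.122, 0.129 and 0.122 on FPKM and -0.0279 to 0.0164 without any 1 library. It changed in Ifih1 (-0.0489 to 0.0555 without any 1 library), in Ptpn1 (0.0623 with library size alone, 0.0589, 0.0610 and 0.0589 on FPKM) and in Ighm (0.109 with library size alone, 0.0106 at 5 CPM, 0.108 on FPKM). With library size alone, Ifit2, Ifi47, Isg20, Ifi35, Tor3a and Eif2ak2 were called higher, as they were on FPKM, except Isg20 without a filter. The fits on FPKM, like library size alone, used no TMM factors, so they are not a separate check. Those factors were 0.947 to 0.952 in Mmrn1-low and 1.05 to 1.06 in Mmrn1-high libraries. The cause of these changes was not tested.

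Same-numbered libraries of the 2 groups did not deviate together across genes (r = 0.04, -0.08 and 0.03). That shows no large shared effect of the number, but it cannot tell whether same-numbered libraries came from the same mouse or sort. With the replicate block, 43 members and 8923 genes were called, and Oas1a lost its call. Leaving out a library in an arm of 3 uses a spread pooled over both groups. Depth limits members under 1 CPM, where a few counts decide a library's value.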

Other observations

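The families below were picked from the list of further interferon-stimulated genes after their values had been seen. The PYHIN genes encode DNA-binding proteins that include the inflammasome sensor Aim2. Of 11 listed, 10 were tested and all 10 were called higher in Mmrn1-high cells, 6 by at least 2-fold. Over all genes tested, 30.7% were called higher and 11.3% were higher by at least 2-fold. The 10 genes had log2 fold changes from 0.48 to 2.13 and a median of 1.07. Their summed level was 28.9 to 30.7 FPKM in Mmrn1-low libraries. Ifi206 had the largest change (2.13 ± 0.15 SE, adjusted p = 6.50e-06), from 1.21, 1.48 and 1.43 CPM to 5.56, 6.04 and 6.50 CPM. Mndal measured 38.2, 36.7 and 35.0 CPM in Mmrn1-low and 83.6, 76.2 and 72.9 CPM in Mmrn1-high libraries (1.08 ± 0.06 SE, adjusted p = 2.77e-06). Aim2 rose by 0.50 ± 0.15 SE (adjusted p = 0.0240), a call lost without Mmrn1-low replicate 1 or 2 or Mmrn1-high replicate 2 or 3 (adjusted p = 0.0589 to 0.0823), and that of Ifi211 (0.63 ± 0.18 SE) was lost without Mmrn1-low replicate 2 (0.0502) or Mmrn1-high replicate 2 (0.0644).

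Beside Trim30a, 7 other tripartite motif genes, which encode ubiquitin ligases, were on that list, and all 7 were called higher, 4 by at least 2-fold. The shares over all genes tested were 30.7% and 11.3%. The relatives of Trim30a (0.65 ± 0.05 SE) had log2 fold changes of 1.65 ± 0.11 SE for Trim30b, 1.50 ± 0.22 SE for Trim30c and 1.32 ± 0.19 SE for Trim30d. The difference between these genes was not tested, and reads of such close relatives can be split between them. Trim25, which activates RIG-I, was abundant and changed little, from 108, 114 and 109 CPM to 136, 137 and 136 CPM (0.30 ± 0.03 SE, adjusted p = 0.000108).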
